A study of Homo sapiens with 3 samples.

Results

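The 55 keratin genes of the MDA-MB-468 (MM468) series are described here across the parental line and its drug-resistant derivatives. A gene was a member when it was protein-coding and its symbol was KRT followed by digits and at most 1 final letter, which selected 55 of the 46427 genes in the table, and of its 19672 protein-coding genes. MM468 is an established cell line of triple-negative breast cancer, a disease class that lacks hormone receptors and HER2 amplification, and all 3 libraries carry the same wild-type genotype label. The adriamycin-resistant line was raised by long exposure to adriamycin (doxorubicin, a topoisomerase II poison) at 10 to 140 nmol/L, and the paclitaxel-resistant line by long exposure to paclitaxel (a microtubule stabiliser) at 2 to 320 nmol/L, while parental MM468 received neither drug. Each line was sequenced as 1 library, and whether a resistant line was a clone or a pool of survivors is not given in the sources used here. Therefore no difference below has a replicate check or a test, and every interval covers counting error in 1 library per line.

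Keratins are the intermediate filament proteins of epithelial cells. A filament is built from heterodimers of an acidic type I keratin and a basic type II keratin, so that the types are made in matched amounts, and the pair in use changes with the kind of epithelium. KRT8 and KRT18, joined by KRT7 and KRT19, are the keratins of simple and luminal breast epithelium, whereas KRT5, KRT14 and KRT17 mark the basal layer and basal-like breast tumours. Stratified epithelia replace these with differentiation, cornification or wound keratins, grouped here as squamous, and the hair shaft and its inner sheath use keratins of their own.

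Of the 55 members, 5 were grouped as luminal, 4 as basal, 19 as squamous, 17 as hair and 9 as root sheath keratins, and KRT222, a keratin-like gene, stood outside these classes. By sequence type, 29 were type I and 26 type II. The libraries held 32704885 counts in parental MM468, 47567927 in the adriamycin-resistant line and 43242628 in the paclitaxel-resistant line. At least 10 counts in any library were reached by 30 keratins, 22 reached them in all 3 libraries, 5 stayed below 10 and 20 were at 0 throughout. A count of 0 allows up to 3 counts, which is 0.0917 CPM (counts scaled to library size) in parental MM468, 0.0631 in the adriamycin-resistant line and 0.0694 in the paclitaxel-resistant line. All 5 luminal and all 4 basal keratins were among the 30, with 12 of 19 squamous, 7 of 17 hair and 1 of 9 root sheath keratins.

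The epithelial label was checked first. All 8 epithelial marker genes, among them EPCAM and CDH1, were above 1 TPM (a level corrected for gene length and library size) in every library. Of these 8, 2 were past 2-fold downward in the adriamycin-resistant line and 4 in the paclitaxel-resistant line, compared with parental MM468, where 11.4% and 13.5% of all genes compared were. Of the receptor genes that define the tumour class, ERBB2 ran from 28.1 to 34.6 TPM and ESR1 from 1.45 to 2.55 TPM, and PGR had 0, 0 and 7 counts in the parental, adriamycin-resistant and paclitaxel-resistant library. The summed level of 8 fibroblast markers ran from 10.7 to 19.4 TPM with COL1A2 and LUM at 0. Within this list, in the same order of libraries, FAP had 52, 398 and 544 counts, COL3A1 2, 0 and 21 and DCN 0, 0 and 14. PDGFRA went the other way, with 152, 12 and 16 counts. The 5 endothelial markers summed to between 1.42 and 2.72 TPM, with KDR at 209, 61 and 19 counts and TEK at 0, 59 and 110. The 4 melanocyte markers summed to between 1.45 and 2.58 TPM with MLANA and TYR at 0 and DCT at 0, 13 and 24 counts. The 4 myoepithelial markers summed to 1.95 TPM in parental MM468, 1.88 in the adriamycin-resistant line and 35.4 in the paclitaxel-resistant line, with CNN1 at 0 throughout and OXTR at 33.6 TPM in the paclitaxel-resistant line. Their part in the keratin differences was not tested.

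Keratin transcripts made up 1.04% of all TPM in parental MM468, 1.11% in the adriamycin-resistant line and 0.903% in the paclitaxel-resistant line. Luminal keratins took most of this in each library, namely 71.1%, 73.5% and 71.9% of the summed keratin TPM. Basal keratins took 17.3%, 11.9% and 20.5%, squamous keratins 8.34%, 6.55% and 6.63%, and hair keratins 3.17%, 7.95% and 0.952%. KRT23, known from pancreatic and colon cancer cells, alone held between 40.3% and 53.0% of the squamous level in each library. The squamous share is therefore that of the class as grouped here, and not a level of stratified epithelial keratins alone. Among these 4 classes the hair share differed most in relative size between the libraries, while the luminal share stayed within a few percentage points. Type I over type II summed TPM was 1.08 in parental MM468, 0.950 in the adriamycin-resistant line and 1.03 in the paclitaxel-resistant line. Both types were thus close to equal in summed transcript level in each line, a comparison of sums and not of single pairs.

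**Figure D1:**
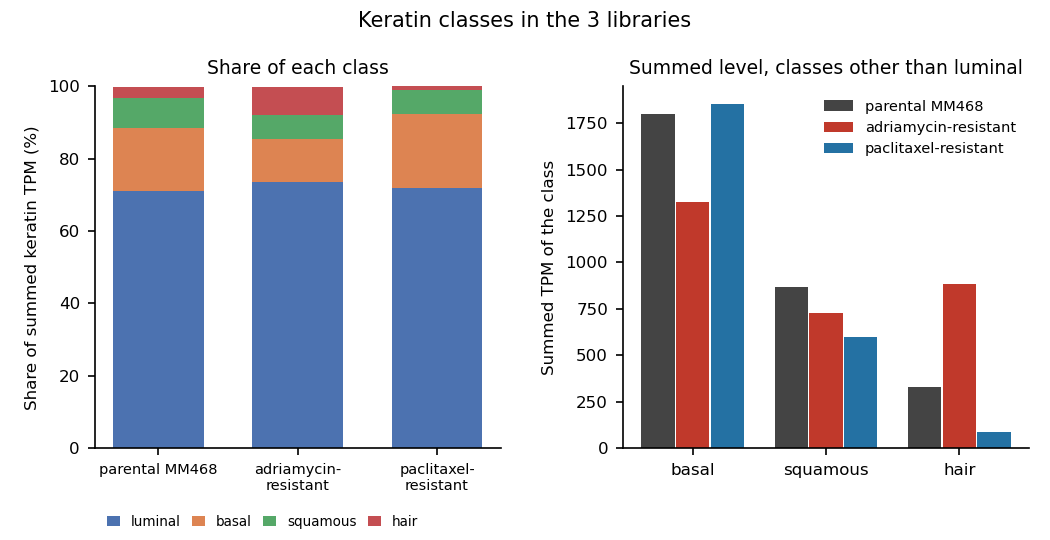
The left panel stacks the share of summed keratin TPM (percent) taken by luminal, basal, squamous and hair keratins in the 3 libraries (1 per line, so no error bars), and the right panel gives the summed TPM of the basal, squamous and hair classes. The hair class stands at 330 TPM in parental MM468, 882 TPM in the adriamycin-resistant line and 85.9 TPM in the paclitaxel-resistant line.

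Fold changes below compare counts after trimmed-mean (TMM) scaling of the 2 libraries, and a gene was compared when it had at least 10 counts in 1 of them. A keratin is called higher or lower past 2-fold, and where 3 values of a gene are listed together they stand in the order parental, adriamycin-resistant, paclitaxel-resistant. In the adriamycin-resistant line against parental MM468, 9 of the 30 keratins compared were at least 2-fold higher and 2 were at least 2-fold lower. The background was 10.9% higher and 11.4% lower of all genes compared, and 8.75% and 10.1% of protein-coding genes, beside 30% and 6.67% of the keratins. In the paclitaxel-resistant line against parental MM468, 26 keratins were compared, of which 2 were at least 2-fold higher and 14 were at least 2-fold lower. Here the background was 20.5% higher and 13.5% lower over all genes and 13.9% and 14.5% over protein-coding genes, beside 7.69% and 53.8% of the keratins. The median log2 fold change of the keratins was 0.14 in the adriamycin-resistant line and -1.21 in the paclitaxel-resistant line, against 0.02 and 0.07 over all genes compared. Both comparisons use the same parental library, so their values are set side by side and are not independent. These counts are a description of the keratins that reached the minimum, some of which reached it in 1 library alone and so had to differ. Among keratins with at least 10 counts in both libraries, a restriction chosen after seeing the data, 5 of 26 were higher and 2 lower in the adriamycin-resistant line and 2 of 22 were higher and 10 lower in the paclitaxel-resistant line. All genes under that restriction gave 5.77% higher and 9.33% lower in the adriamycin-resistant line and 11.2% and 13.2% in the paclitaxel-resistant line.

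Among the luminal keratins, KRT8 and KRT18 were nearly level across the lines. KRT8, the type II member of the simple-epithelial pair (chr12:52897191-52949860 in RefSeq on GRCh38.p14), had 54225 counts in parental MM468, 95501 in the adriamycin-resistant line and 79801 in the paclitaxel-resistant line, or 2032, 2348 and 2436 TPM. Its log2 fold change was 0.26 in the adriamycin-resistant line and -0.07 in the paclitaxel-resistant line. KRT18, its type I partner and the 1 type I keratin encoded on chromosome 12, had 28607, 54698 and 42575 counts and log2 fold changes of 0.38 and -0.06. The signs in the paclitaxel-resistant line depended on the scaling: with library size alone, which moved the median of all genes by 0.23 in the paclitaxel-resistant line against parental MM468 and by 0.25 against the adriamycin-resistant line, both genes came out above 0. KRT8 stood at 1.49, 1.37 and 1.47 times the TPM of KRT18 in the 3 libraries.

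KRT7 and KRT19, the keratins that simple ductal epithelium adds to this pair, were lower in the paclitaxel-resistant line. KRT7 had 41995 counts in parental MM468, 58766 in the adriamycin-resistant line and 28950 in the paclitaxel-resistant line. It differed by -0.07 on the log2 scale in the adriamycin-resistant line and was 2.24-fold lower in the paclitaxel-resistant line (95% counting interval 2.21 to 2.28). KRT19, which lacks most of the tail domain of other keratins, had 46269, 78210 and 36405 counts. It was 1.15-fold higher in the adriamycin-resistant line (1.14 to 1.16) and 1.97-fold lower in the paclitaxel-resistant line (1.94 to 1.99), just inside the 2-fold limit. The call of KRT7 ended with library size alone (log2 fold change -0.94), on the TPM scale (-0.84) and on the FPKM scale (-0.92). KRT19 was the highest keratin by TPM in parental MM468 and the adriamycin-resistant line (2252 and 2500 TPM) and the third highest in the paclitaxel-resistant line (1438 TPM), where KRT8 led. KRT20, a keratin of intestinal and urothelial cells, had 4, 13 and 0 counts, and its 2.18-fold higher value in the adriamycin-resistant line had an interval of 0.682 to 9.30 that includes 1.

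**Figure D2:**
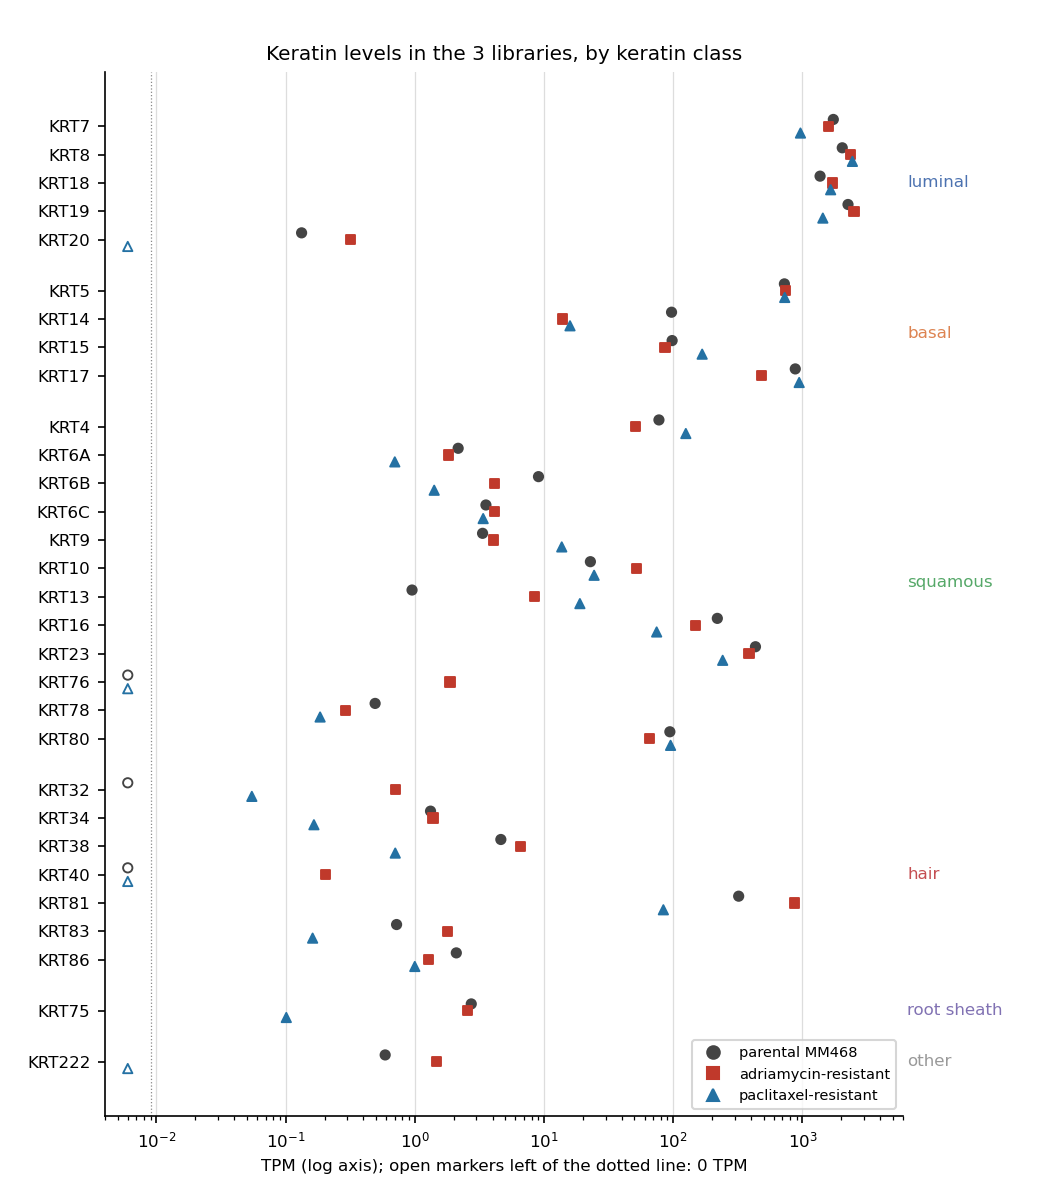
TPM on a log axis of the 30 keratins with at least 10 counts in a library, by class, in parental MM468 (circles), the adriamycin-resistant line (squares) and the paclitaxel-resistant line (triangles), 1 library each, with open markers at the left for 0 TPM. The luminal keratins other than KRT20 lie at or above 965 TPM in all 3 libraries, while KRT81 runs from 83.9 TPM in the paclitaxel-resistant line to 870 TPM in the adriamycin-resistant line.

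Basal keratins split between a steady KRT5 and a lower KRT14. KRT5, the type II keratin of basal cells, had 23983 counts in parental MM468, 37417 in the adriamycin-resistant line and 29704 in the paclitaxel-resistant line, at 725, 743 and 729 TPM. KRT14, its usual type I partner, had 2347, 515 and 474 counts, at 97.0, 14.0 and 15.9 TPM. It was 6.71-fold lower in the adriamycin-resistant line (6.10 to 7.39) and 7.66-fold lower in the paclitaxel-resistant line (6.94 to 8.47). The parental library was thus high and both resistant libraries were low and close to each other, with the paclitaxel-resistant line 1.17-fold below the adriamycin-resistant line (1.03 to 1.33) under TMM and the sign turned with library size alone. The TPM of KRT5 was 7.47 times that of KRT14 in parental MM468, 53.2 times in the adriamycin-resistant line and 45.9 times in the paclitaxel-resistant line. A share of 10.0% of the 75-base windows of the KRT14 transcript also occurs in transcripts of other genes, chiefly KRT16 and its pseudogenes.

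The other basal type I keratins did not follow KRT14. KRT17, a keratin of basal and wounded epithelium, had 19732 counts in parental MM468, 16415 in the adriamycin-resistant line and 26060 in the paclitaxel-resistant line, which made it 1.77-fold lower in the adriamycin-resistant line (1.73 to 1.81) and 1.17-fold lower in the paclitaxel-resistant line (1.15 to 1.19), a sign that turned on the TPM and FPKM scales. KRT15, associated with basal and hair bulge cells, had 3063, 4404 and 6664 counts. Its log2 fold change was -0.03 in the adriamycin-resistant line and 0.49 in the paclitaxel-resistant line. At 880, 481 and 943 TPM, KRT17 was the type I basal keratin with the highest level in each library. Of the 4 basal keratins, KRT14 alone passed 2-fold in either comparison with parental MM468.

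Of the 4 classes above, hair keratins had the largest ratio of summed TPM between the resistant lines. KRT81, a type II keratin of the hair cortex (chr12:52285913-52291534), held 97.3% of the summed hair keratin TPM in parental MM468, 98.6% in the adriamycin-resistant line and 97.6% in the paclitaxel-resistant line. It had 9150 counts in parental MM468, 37763 in the adriamycin-resistant line and 2947 in the paclitaxel-resistant line, at 321, 870 and 83.9 TPM. It was 2.80-fold higher in the adriamycin-resistant line (2.74 to 2.87) and 4.80-fold lower in the paclitaxel-resistant line (4.61 to 5.01), and the paclitaxel-resistant line stood 13.8-fold below the adriamycin-resistant line (13.3 to 14.3). In the adriamycin-resistant line it was the fifth highest keratin by TPM, above KRT5. Its level was 0.158 times that of KRT8 in parental MM468, 0.371 times in the adriamycin-resistant line and 0.0344 times in the paclitaxel-resistant line.

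The KRT81 neighbours on chromosome 12 were far lower in level. KRT83, also of the hair cortex, had 21, 76 and 6 counts, which was 2.45-fold higher in the adriamycin-resistant line (1.50 to 4.20) and 5.31-fold lower in the paclitaxel-resistant line (2.11 to 16.4). KRT86, a cortex keratin close to KRT81 in sequence, had 201, 187 and 119 counts. It differed by -0.66 on the log2 scale in the adriamycin-resistant line and was 2.61-fold lower in the paclitaxel-resistant line (2.07 to 3.31). The annotated span of KRT86 (chr12:52274645-52309163) contains that of KRT81 on the other strand, 33.0% of the 75-base windows of KRT81 also occur in KRT86, and the strand setting of the counting is not given in the sources used here, so the split of reads between the pair is uncertain. The related transcribed pseudogene KRT87P had 133, 644 and 52 counts.

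The type I hair keratins that were measured were low in the paclitaxel-resistant line as well. KRT38 had 185 counts in parental MM468, 397 in the adriamycin-resistant line and 35 in the paclitaxel-resistant line, which was 1.46-fold higher in the adriamycin-resistant line (1.22 to 1.75) and 8.15-fold lower in the paclitaxel-resistant line (5.68 to 12.1). KRT34 had 36, 56 and 6 counts. It stood 9.08-fold lower in the paclitaxel-resistant line (3.88 to 27.0), and in the adriamycin-resistant line its interval of 0.683 to 1.65 included 1. KRT32, a hair cuticle keratin, had 0, 33 and 2 counts and was at least 7.47-fold higher in the adriamycin-resistant line than 3 counts in the parental library would be. KRT40 had 0, 17 and 0 counts, at least 3.85-fold higher in the adriamycin-resistant line on the same footing. All 5 hair keratins compared in the paclitaxel-resistant line were at least 2-fold lower, with a median log2 fold change of -2.41, beside 13.5% of all genes. In the adriamycin-resistant line, 4 of 7 were at least 2-fold higher, beside 10.9% of all genes, but KRT32 and KRT40 were compared only through their counts in that library. Among hair keratins with at least 10 counts in both libraries, 2 of 5 were higher in the adriamycin-resistant line, with a median of 0.54, and 3 of 3 were lower in the paclitaxel-resistant line. The other 10 hair keratins had at most 5 counts in any library. The root sheath keratin KRT75, of the companion layer, had 88, 125 and 4 counts and was 32.8-fold lower in the paclitaxel-resistant line (12.8 to 128), while the interval of its ratio in the adriamycin-resistant line (0.729 to 1.28) included 1.

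Sequences upstream of an annotated start of a keratin gene are shown for 5 members. They were chosen because they passed 2-fold in a comparison or, for KRT37, as the neighbour of KRT38. RefSeq windows on GRCh38.p14 were matched by symbol for 34 of the 55 keratins. KRT7, KRT13, KRT14, KRT16, KRT19, KRT23 and KRT81 had no window, and 9 of the 34 belong to keratins past 2-fold in a comparison. Within 250 bases before the start, the motif TATAAA, searched on both strands, was found in 20 of these 34 windows (58.8%), against 11.1% of the windows of 27305 genes. Many of the 34 windows belong to keratins at 0 in all 3 libraries, such as KRT25 and KRT31, so the share is not one of the measured keratins alone. The 120 bases just before the start are printed 5′ to 3′ on the gene strand, which is the minus strand in each case, with TATAAA in capitals. The stretches lie at chr17:40822615-40822734 for KRT10, chr17:41382307-41382426 for KRT34, chr17:41424586-41424705 for KRT37, chr17:41440984-41441103 for KRT38 and chr12:52434372-52434491 for KRT75. The start is the one used for each RefSeq window. In KRT34 it lies inside the annotated gene span (chr17:41377669-41383816), so that stretch is not upstream of the whole gene.
KRT34: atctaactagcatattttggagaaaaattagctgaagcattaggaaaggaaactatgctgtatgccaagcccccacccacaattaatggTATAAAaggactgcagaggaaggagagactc
KRT37: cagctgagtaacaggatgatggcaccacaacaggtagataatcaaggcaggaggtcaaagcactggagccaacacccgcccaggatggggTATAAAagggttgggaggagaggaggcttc
KRT38: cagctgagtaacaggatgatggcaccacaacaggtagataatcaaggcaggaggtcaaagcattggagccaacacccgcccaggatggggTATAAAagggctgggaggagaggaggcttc
KRT10: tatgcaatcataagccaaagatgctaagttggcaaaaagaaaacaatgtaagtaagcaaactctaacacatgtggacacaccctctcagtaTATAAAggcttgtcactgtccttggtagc
KRT75: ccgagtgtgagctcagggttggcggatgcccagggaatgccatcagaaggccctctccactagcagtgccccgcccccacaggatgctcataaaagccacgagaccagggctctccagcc
Of the 9 keratins past 2-fold in a comparison that have a window, 4 hold TATAAA within these 120 bases, KRT76 besides the 3 shown, and 5 do not. The motif begins 31 bases before the start used in KRT34, 30 in KRT38 and 29 in KRT10. The window of KRT75 holds no TATAAA. KRT37 and KRT38, which lie next to each other on chromosome 17, are identical at 118 of the 120 bases shown. Their counts were unlike, with KRT37 at 0 in all 3 libraries and KRT38 at 185, 397 and 35, and 4.73% of the 75-base windows of the KRT38 transcript also occur in KRT37.

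Squamous keratins differed in both directions. KRT13 and KRT4 form the pair of non-cornifying stratified epithelium. KRT13 had 25 counts in parental MM468, 327 in the adriamycin-resistant line and 593 in the paclitaxel-resistant line, and was 8.85-fold higher in the adriamycin-resistant line (5.91 to 13.9) and 15.3-fold higher in the paclitaxel-resistant line (10.3 to 23.9). It was the 1 keratin that passed 2-fold upward against parental MM468 in both comparisons, which share that library. KRT4 had 2453, 2465 and 4880 counts, with log2 fold changes of -0.55 and 0.36. The TPM of KRT4 was 81.5 times that of KRT13 in parental MM468, 6.04 times in the adriamycin-resistant line and 6.61 times in the paclitaxel-resistant line.

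KRT10, the suprabasal keratin of epidermis, had 726 counts in parental MM468, 2496 in the adriamycin-resistant line and 955 in the paclitaxel-resistant line. It was 2.34-fold higher in the adriamycin-resistant line (2.15 to 2.54), and its log2 fold change in the paclitaxel-resistant line was -0.23. Its epidermal partner KRT1 had 0, 2 and 0 counts. KRT9, the keratin of palm and sole skin, had 114, 210 and 574 counts and was 3.25-fold higher in the paclitaxel-resistant line (2.66 to 4.01), while the interval in the adriamycin-resistant line (0.992 to 1.59) included 1. KRT76, of palatal and gingival epithelium, was at 0 in parental MM468 and the paclitaxel-resistant line and had 107 counts in the adriamycin-resistant line, at least 24.2-fold higher than 3 parental counts would be.

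Of the wound and hyperproliferation keratins, KRT16, KRT6A and KRT6B were lower in the paclitaxel-resistant line, while KRT6C and KRT17 stayed within 2-fold. KRT16, induced in injured epidermis, had 5377 counts in parental MM468, 5541 in the adriamycin-resistant line and 2247 in the paclitaxel-resistant line, at 219, 148 and 74.4 TPM. It was 3.70-fold lower in the paclitaxel-resistant line (3.53 to 3.89) and differed by -0.51 on the log2 scale in the adriamycin-resistant line. Its pseudogene KRT16P6 had 1550, 503 and 27 counts, and the 6 KRT16 pseudogenes together held 30.5%, 10.1% and 1.74% as many counts as KRT16. KRT6B, a usual partner of KRT16, had 309, 215 and 60 counts and was lower in both lines, by 2.11-fold (1.77 to 2.53) and by 7.95-fold (6.03 to 10.7). KRT6A had 74, 95 and 30 counts and was 3.80-fold lower in the paclitaxel-resistant line (2.47 to 6.05). KRT6C had 122, 216 and 143 counts, within 2-fold in both. The 3 KRT6 genes share sequence, with 26.2%, 34.9% and 42.9% of the 75-base windows of KRT6A, KRT6B and KRT6C found in other genes. In the same order, 1.34%, 2.40% and 2.71% of the windows also occur in KRT5, which had 23983, 37417 and 29704 counts. The split of reads among the KRT6 genes, and between them and KRT5, is therefore uncertain.

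KRT23, a type I keratin known from pancreatic and colon cancer cells, was the highest squamous keratin by TPM in each library, at 433, 386 and 241 TPM. With 12829, 18345 and 8329 counts, it was 2.38-fold lower in the paclitaxel-resistant line (2.32 to 2.45), a call that ended on the TPM (log2 fold change -0.84) and FPKM (-0.92) scales, and its log2 fold change in the adriamycin-resistant line was -0.04. KRT80, found in many stratified and simple epithelia, had 5411, 5744 and 6749 counts and log2 fold changes of -0.47 and -0.31. KRT78 had 22, 20 and 10 counts and was 3.37-fold lower in the paclitaxel-resistant line (1.55 to 8.05). The other 7 squamous keratins had at most 8 counts in any library. KRT222 had 24, 90 and 0 counts, 2.54-fold higher in the adriamycin-resistant line (1.61 to 4.18) and in the paclitaxel-resistant line lower by a factor of at least 12.4, but 57.1% of the 75-base windows of its transcript also occur in an overlapping annotated gene.

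The resistant lines were then set against each other. Of 30 keratins compared, 1 (KRT9) was at least 2-fold higher in the paclitaxel-resistant line than in the adriamycin-resistant line and 18 were at least 2-fold lower. The background was 19.4% higher and 14% lower of all genes compared, and 13.5% and 14.6% of protein-coding genes, beside 3.33% and 60% of the keratins. With at least 10 counts in both libraries, 1 of 22 keratins was higher and 10 were lower, beside 12.3% and 12.5% of all genes. The median log2 fold change was -1.23 over the keratins and 0.04 over all genes. By class, 3 of 5 luminal, 0 of 4 basal, 7 of 12 squamous and 6 of 7 hair keratins compared were at least 2-fold lower. KRT19 was 2.32-fold lower (2.29 to 2.34) and KRT7 2.19-fold lower (2.16 to 2.22), calls that ended with library size alone and on the TPM and FPKM scales. KRT23 was 2.37-fold lower (2.31 to 2.44), a call lost on the TPM and FPKM scales, and KRT10 2.82-fold lower (2.61 to 3.04). KRT9 was 2.53-fold higher (2.16 to 2.98).

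The genes of each type lie together, 26 type II keratins and KRT18 on chromosome 12 and the other 28 type I keratins on chromosome 17. Along chromosome 12, KRT86, KRT81 and KRT83 follow each other and were each at least 2-fold lower in the paclitaxel-resistant line than in parental MM468, whereas the next 3 hair keratins, KRT85, KRT84 and KRT82, had at most 4 counts. KRT75 and the 3 KRT6 genes come next, and KRT5, at the end of that run, differed by 0.08 and -0.32 on the log2 scale. On chromosome 17, KRT14 was lower in both lines while KRT17, 2 places further in the order, stayed within 2-fold. KRT13 and KRT15, which are next to each other, had log2 fold changes of 3.93 and 0.49 in the paclitaxel-resistant line.

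**Figure D3:**
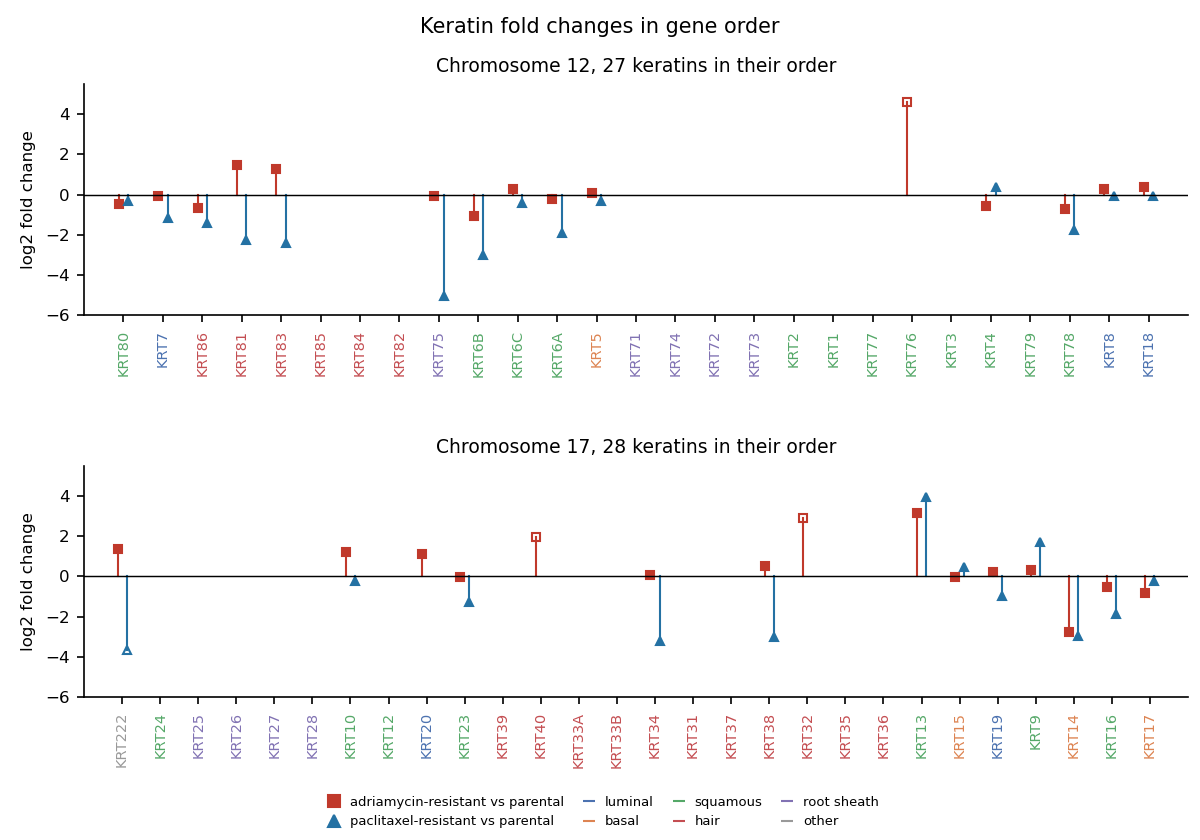
Log2 fold change against parental MM468 for the adriamycin-resistant line (squares) and the paclitaxel-resistant line (triangles), with the keratins in their order along chromosomes 12 and 17, names coloured by class, and open markers for bounds against 3 counts. Genes without a marker had under 10 counts in both libraries compared, and adjoining keratins often differ in size or sign, as KRT13 and KRT15 do.

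Genes that work with keratins were taken from lists of known roles, and the counts past 2-fold in each list stand beside 10.9% higher and 11.4% lower of all genes compared in the adriamycin-resistant line and 20.5% and 13.5% in the paclitaxel-resistant line. Of 16 anchoring genes (desmosome and plakin proteins that hold keratin filaments), 12 were compared in the adriamycin-resistant line, with 1 higher and 5 lower, and 11 in the paclitaxel-resistant line, with 1 higher and 2 lower, at median log2 fold changes of -0.45 and -0.54. The 2 of 11 lower and 1 of 12 higher were near those shares. PLEC, DST and DSC2, which encode plectin, dystonin and desmocollin 2, were lower in the adriamycin-resistant line, with 13214, 6097 and 4290 parental counts against 8902, 4155 and 2661. DSC3, a desmocollin of stratified epithelium, had 1511, 594 and 6766 counts, so that it was lower in the adriamycin-resistant line and higher in the paclitaxel-resistant line. JUP (plakoglobin) had 9354, 18669 and 6476 counts and PKP3 (plakophilin 3) 2057, 2796 and 1261, both lower in the paclitaxel-resistant line. PKP1 (plakophilin 1) had 0, 31 and 6 counts.

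Among 17 cornified envelope genes in the table, 6 were compared in each line, with 2 higher and 3 lower in the adriamycin-resistant line and 1 higher and 3 lower in the paclitaxel-resistant line. The shares over all genes were again 10.9% and 11.4%, and 20.5% and 13.5%. TGM1, the transglutaminase that cross-links the envelope, had 394, 1342 and 503 counts, a log2 fold change of 1.21 in the adriamycin-resistant line. IVL (involucrin), an early envelope protein, had 350, 217 and 191 counts and was lower in both. CDSN (corneodesmosin) had 41, 14 and 5 counts and FLG (filaggrin) 40, 18 and 20, also lower in both. SBSN had 4, 14 and 15 counts and is counted as higher in both, but its intervals (0.747 to 9.92 and 0.772 to 10.0) include 1. Of 14 lineage regulators, 1 was higher and 2 lower of 11 compared in the adriamycin-resistant line, and 2 were higher and 4 lower of 12 in the paclitaxel-resistant line, so that 1 of 11 higher was near the 10.9% of all genes and 2 of 12 near the 20.5%. TP63, the transcription factor of basal and squamous epithelium, had 54, 2453 and 553 counts, with log2 fold changes of 4.95 and 2.72. FOXA1, a luminal factor, had 1044, 653 and 747 counts and was lower in both lines. LEF1, a Wnt effector active in the hair follicle, was at 0 in parental MM468 and the adriamycin-resistant line and had 133 counts in the paclitaxel-resistant line. HOXC13, a regulator of hair keratin genes, had 540, 988 and 783 counts and stayed within 2-fold, and it was named after its values were seen. SOX9, a follicle and duct progenitor factor, had 5328, 4287 and 4088 counts and OVOL1 211, 318 and 117, both lower in the paclitaxel-resistant line, and KLF4 had 223, 149 and 653 counts and was lower in the adriamycin-resistant line.

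The 99 hair shaft and root sheath genes, mostly KRTAP genes for the proteins that embed hair keratin filaments, were mostly at 0, and 7 were compared in each line, with 2 higher and 2 lower in the adriamycin-resistant line (all genes 10.9% and 11.4%) and 1 higher and 2 lower in the paclitaxel-resistant line (20.5% and 13.5%). The KRTAP genes were taken by symbol, so the list also holds the pseudogene KRTAP9-11P and the antisense gene KRTAP5-AS1. KRTAP5-AS1 was 1 of the 7 in each line, with 113, 248 and 138 counts. KRTAP3-1 had 182, 625 and 34 counts and log2 fold changes of 1.22 and -3.04. KRTAP1-5 had 5, 20 and 0 counts and is counted as higher in the adriamycin-resistant line, but its interval there (0.990 to 9.27) includes 1. TCHH (trichohyalin), which hardens the inner root sheath, had 3827, 2775 and 710 counts and was lower in both lines, with log2 fold changes of -1.02 and -3.06. KRTAP2-3 went the other way, with 62, 39 and 248 counts. Among 7 keratin-binding and turnover genes, HSPB1, a small heat shock protein that associates with filaments, had 4155, 14024 and 2179 counts and log2 fold changes of 1.20 and -1.56. FBF1 was the other gene of this list past 2-fold, with 621, 1364 and 2074 counts and a log2 fold change of 1.11 in the paclitaxel-resistant line.

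Other intermediate filament genes were compared in the same way. Of 15 such genes, 12 were compared in the adriamycin-resistant line, with 3 higher and 1 lower, and 11 in the paclitaxel-resistant line, with 2 higher and 2 lower. The 1 of 12 lower and the 2 of 11 in each direction were near the shares of all genes (11.4%, 20.5% and 13.5%). VIM, the mesenchymal filament gene, had 107, 172 and 106 counts and stayed within 2-fold, and it was also named after its values were seen. NEFH (neurofilament heavy chain) had 1179, 61 and 989 counts, a log2 fold change of -4.83 in the adriamycin-resistant line. INA (alpha-internexin) had 145, 395 and 54 counts and NES (nestin) 63, 71 and 3, both lower in the paclitaxel-resistant line. GFAP had 15, 81 and 71 counts and was higher in both lines. The lens filament gene BFSP2 had 0, 28 and 14 counts and PRPH (peripherin) 0, 11 and 0.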

How the data were processed

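RNA-seq of 3 MM468 lines, 1 library each, was analysed from the deposited gene table. Per the labels, libraries were made with a stranded poly(A) kit; per the submitters' processing notes, the authors used Trimmomatic 0.39, HISAT2 2.2.1 and StringTie 2.2.1 on GRCh38. Read length and the strand setting of the counting are not given in the sources used here. The table holds read counts per gene, with FPKM and TPM values that the authors derived, and the 3 units were used as deposited.

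Read counts were scaled for each pair of libraries by TMM (edgeR 4.0.16) over genes with at least 10 counts in 1 of the 2, and log2 fold changes used a prior count of 0.125. Ratios carry exact 95% binomial (Clopper-Pearson) intervals, which cover counting error only. A count of 0 was set to 3 for bounds. The call was 2-fold, with no p-value at 1 library per line. DESeq2 1.42.0 size factors, library size alone, joint TMM, other minimums, prior count, thresholds, TPM and FPKM (pseudocount 1) were alternatives. TPM compared levels between genes. Shared 75-base windows were counted in GENCODE transcripts. Scaling and intervals were tested on simulated data. The simulated counts held counting error alone and changes balanced up and down, so they cannot show how the scaling fits the real libraries.

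Every keratin with at least 10 counts in a library was named with its counts, with fold changes for those past 2-fold or among the 10 highest by TPM, and from other lists the 3 members past 2-fold with the most counts in each direction. The result of 1 marker list is not reported here. The members and lists were chosen with earlier results of these data known. Gene coordinates and upstream sequence are from RefSeq (GRCh38.p14), which matched all 55 keratins for position.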

Additional observations from a re-analysis of the deposited data

Results flagged for a closer look

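For 7 keratins the resistant lines lay on opposite sides of parental MM468, with counting intervals that left out 1 in both comparisons under TMM, DESeq2 size factors, library size alone and joint TMM. With 1 library per line the difference between the lines was not tested against replicates, and the parental library is shared. KRT81 had a log2 fold change of 1.49 in the adriamycin-resistant line and -2.26 in the paclitaxel-resistant line, and KRT83, 1 place from it on chromosome 12, had 1.29 and -2.41. KRT83 had only 21, 76 and 6 counts and shares 75-base windows with KRT81. Whether its values are separate from those of KRT81 was not tested. KRT38 had 0.54 and -3.03. KRT222 had 1.35 in the adriamycin-resistant line and a bound of -3.63 in the paclitaxel-resistant line, where it had 0 counts. An overlapping annotated gene holds 57.1% of the 75-base windows of its transcript. KRT19 had 0.20 and -0.98, and KRT5 0.084 and -0.32, although on the TPM scale KRT5 in the paclitaxel-resistant line came to 0.0076. KRT4 showed the other order, with -0.55 in the adriamycin-resistant line and 0.36 in the paclitaxel-resistant line. The values of KRT5 and KRT4 stayed within 2-fold in both lines, as did those of KRT19.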

How the results depend on the processing

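No paired analysis was possible because each line had 1 library. The counts of keratins past 2-fold, 9 higher and 2 lower in the adriamycin-resistant line and 2 higher and 14 lower in the paclitaxel-resistant line against parental MM468, and 1 higher and 18 lower in the paclitaxel-resistant line against the adriamycin-resistant line, were each recomputed under 10 alternatives. With a minimum of 100 counts, which removes low keratins, they became 4 higher in the adriamycin-resistant line, 8 lower in the paclitaxel-resistant line and 10 lower in the paclitaxel-resistant line against the adriamycin-resistant line. At a 4-fold threshold they were 4 higher and 1 lower in the adriamycin-resistant line, 1 higher and 8 lower in the paclitaxel-resistant line, and 0 higher and 10 lower in the paclitaxel-resistant line against the adriamycin-resistant line. With TPM and a pseudocount of 1, which shrinks low genes, they were 4 higher and 1 lower, 6 lower, and 3 higher and 9 lower. With FPKM they were 3 higher and 1 lower, 6 lower, and 2 higher and 5 lower. Library size alone gave 2 higher in the paclitaxel-resistant line against the adriamycin-resistant line. Requiring 10 counts in both libraries, an alternative chosen after seeing the data, gave 5 higher in the adriamycin-resistant line and 10 lower in the paclitaxel-resistant line against the adriamycin-resistant line. The other counts stayed within 1.5 times.

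FPKM gave the same class shares as TPM. Read counts, which are not corrected for length, gave luminal shares of 66.5% in parental MM468, 68.3% in the adriamycin-resistant line and 67.5% in the paclitaxel-resistant line, and in the same order basal shares of 19.1%, 14.0% and 22.6%, squamous shares of 10.7%, 8.51% and 8.83%, and hair shares of 3.73%, 9.17% and 1.12%. The root sheath share was 0.0342% in parental MM468 and 0.0297% in the adriamycin-resistant line against 0.0263% and 0.0230% by TPM, and that of KRT222 was 0.0214% in the adriamycin-resistant line against 0.0132%. Type I over type II became 0.864, 0.761 and 0.814.

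Of 666 recomputed log2 fold changes of single keratins, 467 stayed within the counting interval, 182 moved outside it in the same direction and 17 took the other sign. No keratin past 2-fold changed its direction under these alternatives. The 17 belong to KRT5, KRT8, KRT10, KRT17, KRT18 and KRT80 in the paclitaxel-resistant line against parental MM468 and to KRT8 and KRT14 against the adriamycin-resistant line, each within 2-fold, under TPM, FPKM, library size alone or the minimum of 100 counts. Counting intervals hold no biological or library-preparation spread, so that depth sets the limit only for the low keratins, such as KRT20 and KRT78.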
